A study of Mus musculus with 2 samples.

Results

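The antiviral type I interferon-stimulated genes described here are 39 genes that were listed by name: the Ifit, Oas and Oasl families, Mx1 and Mx2, Isg15 with its partners Usp18 and Herc6, the RNA and DNA sensors Ddx58, Ifih1, Dhx58, Zbp1, Ifi204 and Mndal, the transcription factors Irf7, Irf9 and Stat2, and Rsad2, Cmpk2, Ifitm3, Bst2, Eif2ak2, Ifi44, Rtp4, Ifi35, Ifi27, Xaf1, Trim30a, Parp14, Phf11b, Phf11d, Apol9a and Samd9l. Of these, 38 were measured among 31053 genes, and Mx2 was not analysed here. RNA of single cells was captured in droplets (10x Genomics) from a brain tumour of C57BL/6 mice in which the tumour cells carry mutant IDH1 (mIDH1), a glioma model made by genetic engineering and sampled at the symptomatic stage. Both libraries, replicates 1 and 2, belong to that 1 group, so classes of cells are compared within the tumour and no other tumour or treatment is involved. The labels give no age and do not say whether the libraries came from separate animals. The p-values and standard errors rest on the spread between these 2 libraries, which may be technical. That spread was pooled over all classes and partly shared between genes. A p-value or standard error can therefore be small for a member on which the 2 libraries disagree.

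Type I interferons bind a receptor of Ifnar1 and Ifnar2 chains, which signals through the kinases Jak1 and Tyk2 to a complex that holds Stat2 and Irf9. That complex binds the interferon-stimulated response element, a repeat of GAAA spaced by a pair of bases, and switches on genes whose products recognise viral nucleic acid, degrade it, block its translation or trap virus particles. Interferon gamma uses a receptor of its own and induces a partly shared set of genes. In the brain, microglia and infiltrating myeloid cells are known producers and responders.

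Cells were assigned by the gene that defines each gate, in barcodes with at least 200 genes and at most 15% mitochondrial unique molecular identifiers (UMIs). Tumour cells had Nras at 1000 CPM or more (counts scaled to a total of 1000000 per cell, or per class where sums are given) and were split by the presence of a Cd74 UMI. The other gates were C1qa at 5 UMIs or more (macrophage/microglia), Ly6c2 at 1 or more with Lyz2 at 5 or more (monocyte), S100a8 plus S100a9 at 10 or more (neutrophil), Mcpt8 (basophil), Ccr7 (dendritic) and Cd3e (T) at 1 or more. None of the gate genes is a member. Replicates 1 and 2 held 2704 and 2266 barcodes with 63001350 and 58915133 UMIs, of which 1740 and 1446 barcodes were kept; 10 barcodes occurred in both libraries. The 131 and 106 kept cells that passed more than 1 gate were left out, mostly pairs of the tumour and basophil gates (75 and 59 cells). This left 986 and 830 tumour cells (121 and 109 Cd74-positive, 865 and 721 Cd74-negative), 231 and 210 macrophage/microglia cells, 29 and 35 monocytes, 15 and 16 neutrophils, 74 and 64 basophils, 43 and 33 dendritic cells and 25 and 27 T cells. Depth differed widely, with medians of 41617 and 46368.5 UMIs per tumour cell, 7893 and 9317.5 per macrophage/microglia cell and 1812 and 2372 per neutrophil. The separate marker lists were detected at 10 CPM or more in each gate, except that 5 of 6 dendritic markers were found and Xcr1 was at 0. The other lists were complete (5 of 5 for tumour, 9 of 9 for macrophage/microglia, 5 of 5 for monocyte, 6 of 6 for neutrophil, basophil and T). The dendritic gate also held 6 of 6 T cell markers (386 and 18.1 CPM in sum) and 4 of 4 B cell markers (316 and 449 CPM). Its values may therefore not be those of dendritic cells alone. The T gate held 2 of 4 NK cell markers (1338 and 1489 CPM in sum). The monocyte gate held 7 of 9 macrophage/microglia markers (5680 and 1742 CPM). Values of the T and monocyte gates may thus be mixed as well. The tumour gene Cdkn2a was present in the basophil gate (138 and 182 CPM) and the dendritic gate (81.7 and 68.8 CPM). Tumour cells had 391 and 380 CPM of it and macrophage/microglia cells 12 and 9.16 CPM. Of 441 macrophage/microglia barcodes, 124 (28.1%) had no UMI of the nuclear RNA Malat1.

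The response element is visible in the promoters of some of the members on which the results turn, and not in all. The bases just upstream of the transcription start are shown for 7 that hold it, from RefSeq on GRCm38.p6. They are written 5′ to 3′ on the gene's own strand. Chosen were members with high ratios of variance to mean over single tumour cells (Ifit1, Ifit3, Isg15, Rsad2) and an abundant member (Bst2). The others are the member nearest to tumour-restricted (Apol9a) and the member that differed with Cd74 (Phf11b). Capitals mark GAAANNGAAA or its reverse complement TTTCNNTTTC.
Ifit1 (chr19:34640709-34640888, plus strand): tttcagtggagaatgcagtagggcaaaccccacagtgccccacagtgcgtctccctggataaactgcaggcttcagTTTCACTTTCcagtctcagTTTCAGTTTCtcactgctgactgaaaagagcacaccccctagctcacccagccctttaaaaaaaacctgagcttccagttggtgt
Ifit3 (chr19:34583349-34583528, plus strand): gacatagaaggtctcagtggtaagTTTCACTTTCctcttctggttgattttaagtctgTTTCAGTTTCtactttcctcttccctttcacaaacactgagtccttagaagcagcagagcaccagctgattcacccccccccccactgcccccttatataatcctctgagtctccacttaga
Isg15 (chr4:156200819-156200998, minus strand): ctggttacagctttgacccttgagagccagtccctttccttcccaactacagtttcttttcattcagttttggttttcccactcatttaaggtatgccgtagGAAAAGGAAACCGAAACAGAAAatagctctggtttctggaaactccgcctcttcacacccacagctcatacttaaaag
Rsad2 (chr12:26456453-26456632, minus strand): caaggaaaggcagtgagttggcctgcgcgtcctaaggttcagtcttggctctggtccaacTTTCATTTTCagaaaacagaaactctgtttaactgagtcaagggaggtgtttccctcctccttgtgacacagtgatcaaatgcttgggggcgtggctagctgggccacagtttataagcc
Bst2 (chr8:71537473-71537652, minus strand): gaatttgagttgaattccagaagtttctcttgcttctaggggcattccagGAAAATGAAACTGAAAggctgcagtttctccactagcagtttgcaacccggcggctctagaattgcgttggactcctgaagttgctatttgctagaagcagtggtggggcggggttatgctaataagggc
Apol9a (chr15:77411035-77411214, minus strand): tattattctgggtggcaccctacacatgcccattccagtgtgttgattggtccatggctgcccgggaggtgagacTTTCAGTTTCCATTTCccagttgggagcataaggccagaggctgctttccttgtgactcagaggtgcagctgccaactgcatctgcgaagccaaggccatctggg
Phf11b (chr14:59341331-59341510, minus strand): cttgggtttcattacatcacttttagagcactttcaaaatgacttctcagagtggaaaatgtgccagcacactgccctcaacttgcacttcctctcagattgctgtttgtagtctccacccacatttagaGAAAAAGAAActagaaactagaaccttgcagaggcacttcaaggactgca
Ifit1, Ifit3, Bst2 and Apol9a held 2 matches each, Isg15 held 3 that overlap, and Rsad2 and Phf11b held 1 each. Apol9a has another listed start, which is not shown. Over the window of 250 bases before to 50 bases after the start, on either strand and with overlapping matches counted, 17 of the 29 members with a listed promoter (58.6%) held the motif, against 1079 of 27025 genes (3.99%). At least 2 matches were found in 8 of 29 members (27.6%), against 72 of 27025 genes (0.266%). Listed promoters without a match included those of Ifi44, Irf7, Ifit2, Oasl1 and Herc6. A match is a description of the letters and not a measured binding site. Several members lie side by side: Ifit2, Ifit3, Ifit3b and Ifit1 follow each other on the plus strand of chromosome 19 (GRCm38, GENCODE M21), with Ifit2 starting at 34550694 and Ifit1 ending at 34650009, and Rsad2 and Cmpk2 start on opposite strands of chromosome 12 at 26456452 and 26469204.

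All 38 measured members were detected in tumour cells, and their summed level there was close to that of macrophage/microglia cells and below that of monocytes. The sum was 4736 and 4829 CPM in tumour cells, 5646 and 5507 CPM in macrophage/microglia cells, 13136 and 11948 CPM in monocytes, 13670 and 7116 CPM in neutrophils, 5302 and 6594 CPM in basophils, 3392 and 3490 CPM in dendritic cells and 3990 and 3249 CPM in T cells. Monocytes were thus high in both libraries, dendritic cells and T cells were low, and neutrophils differed about as much between libraries as between classes. Most of the sum came from a pair of membrane proteins: Ifitm3, which blocks the fusion of virus with endosomes, and Bst2 (tetherin), which holds budding virus at the cell surface. They held 63.1% of the member UMIs in tumour cells, 41.9% in macrophage/microglia cells, 59.8% in monocytes and 11.2% in T cells. Over the other 36 members the sum was 1672 and 1855 CPM in tumour cells, against 3348 and 3132 CPM in macrophage/microglia cells, 5496 and 4592 CPM in monocytes and 3495 and 2937 CPM in T cells. Tumour cells had the lowest 36-member sum of all classes in both libraries.

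**Figure D1:**
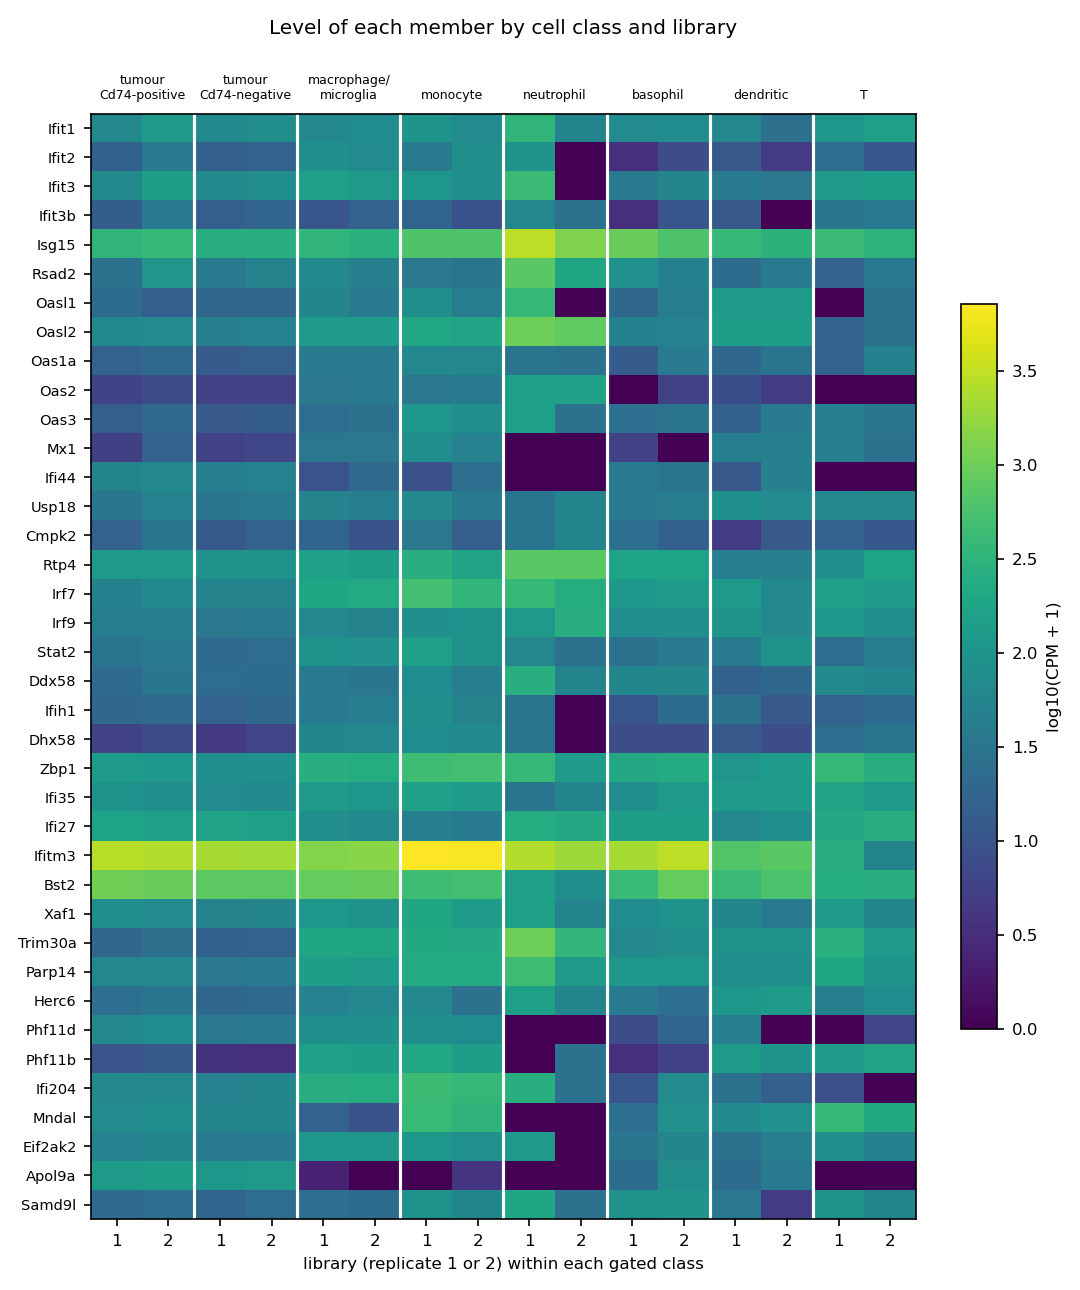
Level of each of the 38 measured members as the colour of log10(CPM + 1), with 1 column per library within each gated class. Ifitm3, Bst2 and Isg15 are among the brightest rows in tumour cells, and Apol9a and Ifi44 are at 0 in both libraries of T cells and neutrophils.

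Tumour cells were compared with macrophage/microglia cells member by member, since the design text of the series concerns heterogeneity within the tumour. Of 38 members, 3 were higher in tumour cells (Apol9a, Ifi44 and Mndal) and 17 were lower, where called means an adjusted p under 0.05 and a log2 fold change of at least 1 in size (edgeR quasi-likelihood test, Benjamini-Hochberg adjustment over 13288 genes). Of all genes tested, 26.6% were called higher and 21.8% lower in this comparison. The median log2 fold change was -0.85 over the members and 0.24 over all genes, and 8 of 38 members had a positive one.

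Among the effectors, the Ifit proteins bind viral RNA with a foreign 5′ end. Ifit2 had 14.3 and 19.0 CPM in tumour cells, against 84.1 and 72.3 CPM in macrophage/microglia cells, a log2 fold change of -2.17 ± 0.17 (SE, adjusted p = 9.68e-13). Ifit1 had 69.2 and 88.9 CPM in tumour cells and 64.4 and 74.2 CPM in macrophage/microglia cells, and its log2 difference was 0.15 ± 0.16 (adjusted p = 0.424). Neighbouring genes of 1 cluster thus stood apart in 1 case and not in the other. Ifit3 had 66.3 and 88.3 CPM in tumour cells and 150 and 116 CPM in macrophage/microglia cells, with values that did not overlap but a log2 difference of -0.79, under the limit. Ifit3 and Ifit3b share 51.2% and 44.5% of their 50-base stretches with each other, so the level of each is uncertain. Rsad2 (viperin), which makes a chain-terminating nucleotide, had 36.3 and 61.0 CPM in tumour cells and 66.7 and 47.6 CPM in macrophage/microglia cells, and these overlapped.

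The Oas proteins sense double-stranded RNA and make the 2-5A messenger that activates RNase L. Oas2 had 4.60 and 5.04 CPM in tumour cells, against 33.1 and 36.6 CPM in macrophage/microglia cells (log2 fold change -2.88 ± 0.20, adjusted p = 2.42e-14). Oas1a, Oasl1 and Oasl2 were also lower, by log2 fold changes of -1.44, -1.59 and -1.26, and Oas3 had -0.95, just under the limit. Oas1a shares 57.6% of its 50-base stretches with Oas1g, so its level is uncertain. Mx1, a dynamin-like GTPase that traps viral nucleoproteins, had 4.49 and 7.47 CPM in tumour cells, against 34.0 and 33.0 CPM in macrophage/microglia cells (log2 fold change -2.37 ± 0.25, adjusted p = 7.11e-10). Eif2ak2 (PKR), which halts translation on double-stranded RNA, was lower too, with 39.5 and 40.2 CPM in tumour cells, against 109 and 110 CPM in macrophage/microglia cells.

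The membrane effectors were different. Bst2 had 817 and 791 CPM in tumour cells and 895 and 913 CPM in macrophage/microglia cells, a log2 difference of -0.19 ± 0.17 (adjusted p = 0.32). Ifitm3 had 2247 and 2183 CPM in tumour cells, against 1402 and 1462 CPM in macrophage/microglia cells, a log2 difference of 0.59 ± 0.19 that passed the adjusted p (0.00778) but not the limit on size. UMI counts were not scaled by transcript length, so each member is compared with itself across classes.

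Isg15, a ubiquitin-like protein that is attached to other proteins, had 262 and 287 CPM in tumour cells and 350 and 284 CPM in macrophage/microglia cells, with overlapping values (log2 difference -0.20 ± 0.12, adjusted p = 0.141). Usp18, which removes Isg15 from proteins and dampens the interferon receptor, had 31.5 and 39.3 CPM in tumour cells and 51.5 and 43.0 CPM in macrophage/microglia cells, a log2 difference of -0.49. Herc6, the mouse ligase that attaches Isg15, was lower, with 20 and 23.4 CPM in tumour cells, against 50.1 and 61.3 CPM in macrophage/microglia cells (log2 fold change -1.36).

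The sensors of viral RNA differed among themselves. Dhx58 (LGP2), the regulator of the other RNA helicases, had 3.74 and 5.73 CPM in tumour cells, against 57.5 and 59.5 CPM in macrophage/microglia cells, a log2 fold change of -3.68 ± 0.16 (adjusted p = 1.79e-19). Ifih1 (MDA5), which senses long double-stranded RNA, was lower by a log2 fold change of -1.32. Ddx58 (RIG-I), which senses RNA with a 5′ triphosphate, had 22.5 and 23.5 CPM in tumour cells and 37.2 and 31.1 CPM in macrophage/microglia cells, a log2 difference of -0.63. Among sensors of other nucleic acids, Zbp1, a receptor of Z-form nucleic acid, was lower, with 84.8 and 89.0 CPM in tumour cells, against 266 and 245 CPM in macrophage/microglia cells (log2 fold change -1.51).

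Ifi204 and Mndal are neighbouring members of the Ifi200 family on chromosome 1, whose proteins bind DNA, and they went opposite ways. Ifi204 had 52.3 and 57.3 CPM in tumour cells, against 254 and 244 CPM in macrophage/microglia cells (log2 fold change -2.24 ± 0.12, adjusted p = 1.14e-17). Mndal had 58.4 and 61.7 CPM in tumour cells, against 16.1 and 8.24 CPM in macrophage/microglia cells (log2 fold change 2.27 ± 0.23, adjusted p = 1.9e-10). Ifi204 shares 14.8% of its 50-base stretches with Ifi211. Mndal shares 7.96% of its stretches with Ifi211 and 19.6% with any other gene. Levels of both genes, here and below, are thus lower limits. The call of Mndal is lost, at a log2 difference of 0.999, when cells of several gates are kept in each of them.

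Of the transcription factors, Irf7, which amplifies interferon production, had 50.9 and 55.3 CPM in tumour cells, against 192 and 228 CPM in macrophage/microglia cells (log2 fold change -2.07 ± 0.12, adjusted p = 1.17e-16). Stat2 had 23.0 and 25.1 CPM in tumour cells, against 93.8 and 89.3 CPM in macrophage/microglia cells (log2 fold change -1.90). Irf9, the DNA-binding subunit of the same complex, had 35.2 and 37.9 CPM in tumour cells and 61.6 and 51.7 CPM in macrophage/microglia cells, a log2 difference of -0.69 under the limit.

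Among the remaining members, Phf11b showed the most negative log2 fold change of the 38, with 3.65 and 4.01 CPM in tumour cells, against 153 and 141 CPM in macrophage/microglia cells (-4.96 ± 0.12, adjusted p = 4.84e-27). Phf11b shares 26.0% of its 50-base stretches with Phf11a and 47.0% with any other gene, so its levels, here and below, are lower limits. Its neighbour Phf11d had 38.6 and 44.0 CPM in tumour cells and 83.2 and 84.2 CPM in macrophage/microglia cells, a log2 difference of -0.90 that missed the limit on size. Trim30a, which dampens signalling of toll-like receptors, was lower by -3.52 ± 0.10 (adjusted p = 9.76e-25), and Parp14, an ADP-ribosyltransferase, by -1.73. Ifi44, whose protein restricts several viruses, was higher, with 46.6 and 52.2 CPM in tumour cells, against 8.74 and 19.7 CPM in macrophage/microglia cells (log2 fold change 1.75 ± 0.20, adjusted p = 2.74e-09). The other members of this comparison had log2 differences between -0.79 and 0.99, with Xaf1 and Ifi27 at the ends.

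Apol9a, an apolipoprotein L family member induced by interferon in mice, was the nearest to a tumour-restricted member. It had 112 and 122 CPM in tumour cells, against 1.38 and 0 CPM in macrophage/microglia cells. In counts, that is 10818 UMIs in tumour cells and 3 in macrophage/microglia cells, a ratio of levels of 170 with an exact 95% counting interval of 58.1 to 824; the fitted log2 fold change was 7.31 ± 0.36 (adjusted p = 6.5e-18). With every cell thinned to 10000 UMIs, 55.1% and 54.2% of Cd74-negative tumour cells held an Apol9a UMI, against 0 of 188 macrophage/microglia cells, which allows a share of up to 1.60%. Monocytes held 1 UMI, a ratio of tumour to monocyte levels of 70.9 (interval 12.7 to 2801), and T cells and neutrophils held none. Apol9a shares 16.5% of its 50-base stretches with Apol9b, so these levels are lower limits. Intervals and limits from counts cover counting error only.

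Each class was then set against the mean log2 level of the other classes, with both tumour classes entering as 1, to look for members particular to a cell type. A member was to be named cell-type-specific if it was called higher in a class, was highest there in both libraries and had at least 3 times the mean CPM of the next class. No member met that rule with the gates as given: of the 29 members called higher in the class where their mean was highest, 0 reached 3 times the next class and 5 reached 2 times. These were Ifitm3, Oas3 and Irf7 in monocytes (2.73, 2.42 and 2.01 times the next class), Apol9a in tumour cells (2.30 times basophils) and Oasl1 in dendritic cells (2.14 times monocytes). Without immune-gated cells that held a UMI of the tumour genes Cdkn2a or Nes, a step chosen after the values were seen, 2 members met the rule: Apol9a in tumour cells, at 13.6 times basophils, which then held 3 and 1 UMIs of it, and Ifitm3 in monocytes, at 3.09 times basophils. Neutrophils stayed out of this step because they had fewer than 20 cells in each library. The share of all genes that meets the rule was not counted, so these counts of members have no background.

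Monocytes had the most members called higher, 19 of 38, with 1 lower, where 9.35% and 4.43% of all genes were called. The median log2 fold change was 1.15 over the members (1.04 with classes at 0 set to 3 counts) and -0.35 over all genes. Ifitm3 had 7181 and 6861 CPM in monocytes, against 2196 and 2949 CPM in basophils, the next class (log2 fold change against all others 2.84 ± 0.15, adjusted p = 3.07e-16). Ifi204 had 438 and 368 CPM in monocytes and a log2 fold change of 3.59 ± 0.24, and Mndal 397 and 318 CPM and 2.47 ± 0.20. The size for Ifi204 rests in part on T cells, which held 1 UMI of it. Irf7 had 503 and 343 CPM there (1.84 ± 0.17) and Oas3 106 and 82.9 CPM (1.87 ± 0.29). The other members called higher were Dhx58, Phf11b, Ifit2, Mx1, Phf11d, Ifih1, Oasl2, Stat2, Zbp1, Trim30a, Parp14, Oas1a and Xaf1, with log2 fold changes between 1.08 and 2.30. Oas2 was called higher too, with 32.7 and 35.9 CPM in monocytes. The member that was lower was Ifi27, a mitochondrial protein that sensitises cells to apoptosis, with 45.0 and 38.7 CPM in monocytes and a log2 fold change of -1.57 ± 0.27. Ifi204 was called higher in macrophage/microglia cells too, whereas Mndal was lower there (-3.18 ± 0.24, adjusted p = 6.58e-13).

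In macrophage/microglia cells 13 members were higher and 1 lower, where 17.1% and 5.27% of all genes were called, and the median log2 fold change was 0.55 over the members and 0.19 over all genes. With library sizes alone as the scaling, 8 were higher, where 14.7% of all genes were. The leading ones with counts in every class were Ifi204 (2.96 ± 0.20), Ifit2 (2.59 ± 0.29), Phf11d (2.22 ± 0.25), Phf11b (2.21 ± 0.14) and Dhx58 (2.17 ± 0.21). Trim30a, Eif2ak2, Stat2, Ifit3, Mx1, Oasl2 and Bst2 followed, between 1.01 and 1.29. Ifi204 and Phf11d had 1 UMI each in all T cells, and Phf11b had 3 and Mx1 2 in all basophils. The fitted sizes of these members thus rest on few counts in those classes. Oas2, with 33.1 and 36.6 CPM, was also called higher, but its fitted size depends on the prior count, since T cells had no count and basophils and dendritic cells 2 and 3.

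In tumour cells, 3 members were higher and 14 lower than the mean of the other classes, where 26.8% and 10.6% of all genes were called. The median log2 fold change was -0.53 over the members and 0.62 over all genes. The 14 included Trim30a (-2.94 ± 0.14, adjusted p = 3.12e-18), Irf7 (-1.63 ± 0.13), Parp14 (-1.52 ± 0.11) and Zbp1 (-1.35 ± 0.09). The others were Phf11b, Dhx58, Mx1, Oas3, Oasl1, Herc6, Oas1a, Stat2, Samd9l and Irf9, between -3.74 and -1.04. With 1 library alone Oasl1 had 0.73 in replicate 1 and -1.62 in replicate 2, and Mx1 -2.78 in replicate 1 and 0.21 in replicate 2. T cells had no Oasl1 count in replicate 1 and basophils no Mx1 count in replicate 2, and these values depend on the prior count there. Apol9a and Ifi44 were called higher, but T cells had no count of either, so their fitted fold changes depend on the prior count. Set against T cells alone, with 3 counts allowed for T cells, Apol9a was at least 12.4-fold and Ifi44 at least 5.23-fold higher in tumour cells. Phf11d was higher by a log2 fold change of 1.14 ± 0.27 (edgeR, adjusted p = 0.00055), which was 0.12 and not called with cells kept in every gate they pass. That fold change rests in part on T cells, which held 1 UMI of Phf11d. Macrophage/microglia cells (83.7 CPM) and monocytes (78.2 CPM) had a higher mean of Phf11d than tumour cells. Apol9a and Ifi44 were also called higher in basophils (21.8 and 80.2 CPM of Apol9a, 36.4 and 29.2 CPM of Ifi44), and Apol9a in dendritic cells (22.3 and 39.8 CPM), gates in which the tumour gene Cdkn2a was present. When immune-gated cells with a UMI of Cdkn2a or Nes were left out, 3 and 1 UMIs of Apol9a were left in basophils, against 9 and 33 with those cells, and 0 and 0 in dendritic cells, against 6 and 11. Of Ifi44, 0 and 0 UMIs were left in basophils, against 15 and 12, so these calls in basophils and dendritic cells did not hold. After that step 7 members were higher in tumour cells, where 31.6% of all genes were, the added ones being Ifitm3 (1.45), Bst2 (1.30), Ifi204 (1.34) and Ifit3b (1.15). Each of the added members still had its highest mean in another class.

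Basophils had 6 members called higher and 2 lower, where 12.4% and 1.9% of all genes were called. Isg15 had 923 and 591 CPM there (log2 fold change 1.29 ± 0.13, adjusted p = 3.34e-09), and Samd9l, which restricts poxviruses, 94.5 and 97.3 CPM (1.75 ± 0.27). Ifitm3 (1.37 ± 0.17), Ddx58 (1.03 ± 0.30), Apol9a and Ifi44 were the other members higher, and Mx1 and Phf11b were lower, with 2 and 3 UMIs in all basophils. When cells of several gates were kept in each, Isg15, Samd9l and Ddx58 reversed to log2 values of -0.63, -0.96 and -0.79, and 1 member was higher and 22 lower in basophils, where 17.2% and 10.8% of all genes were called. Of those cells, 75 and 59 passed the tumour and basophil gates. With the tumour gate at an Nras of 2000 CPM, Ddx58 had -0.18 and Samd9l -0.062. Without cells holding Cdkn2a or Nes, Isg15 had 1.84 and Samd9l 2.25.

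Dendritic cells had 4 members called higher and 9 lower, where 9.28% and 2.99% of all genes were called; with library sizes alone the split was 5 and 3, where 11% and 2.04% of all genes were called. Oasl1, which limits the translation of Irf7, had 134 and 130 CPM in dendritic cells (log2 fold change 1.96 ± 0.32, adjusted p = 1.69e-05), and Herc6 had 108 and 127 CPM (1.36 ± 0.26). Phf11b (1.41 ± 0.27) and Apol9a were the other members higher. Members that were lower were Rtp4 (-1.88 ± 0.28), Ifitm3 (-1.32 ± 0.21), Ddx58, Ifit3, Samd9l, Zbp1, Ifit1, Xaf1 and Eif2ak2. With cells kept in every gate they pass, 1 member was higher and 1 lower, where 8.75% and 0.809% of all genes were called. The plasmacytoid marker Siglech was at 0 in this gate. Markers of T and B cells were detected in it, and the part of such cells in these values was not tested.

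T cells had 3 members called higher and 6 lower, where 4.76% and 4% of all genes were called. Mndal (387 and 223 CPM; 1.94 ± 0.26), Phf11b (124 and 175 CPM; 1.93 ± 0.30) and Ifi27 (209 and 270 CPM; 1.31 ± 0.22) were higher. Ifitm3 had 255 and 53.0 CPM in T cells (-4.14 ± 0.29), Oasl2 15.5 and 26.5 CPM (-2.38 ± 0.41) and Bst2 240 and 260 CPM (-1.60 ± 0.24), all lower. T cells thus had the lowest Ifitm3 of all gated classes in both libraries while their Ifit1, at 108 and 148 CPM, was not below that of tumour cells. Phf11d and Ifi204, each with 1 UMI in all T cells, and Ifi44, with none and at least 5.23-fold higher in tumour cells, were the other members lower.

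Neutrophils are given as values, since 15 and 16 cells with 32920 and 37662 UMIs in all stand behind them. They had the highest mean of 15 members, 7 of them in both libraries. Isg15 had 2977 and 1301 CPM, Oasl2 1002 and 823 CPM, Rtp4 729 and 743 CPM, Trim30a 1002 and 345 CPM and Rsad2 729 and 186 CPM. Mx1, Ifi44, Phf11d, Mndal and Apol9a had no count there, which allows up to 42.5 CPM over the class. With cells kept in every gate they pass, neutrophils could be fitted and 6 members were called higher (Oas2 2.46, Oasl2 1.68, Trim30a 1.62, Oas3 1.35, Parp14 1.04 and Rtp4 1.02, log2), and none lower, where 5.98% and 1.72% of all genes were called.

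Within the tumour class the members were spread very unevenly over cells. Over the 36 members other than Ifitm3 and Bst2, the median Cd74-negative tumour cell had 937 and 947 CPM in replicates 1 and 2, the 90th percentile was 3979 and 3945 CPM and the highest cells reached 20751 and 21213 CPM. Macrophage/microglia cells had medians of 2665 and 2380 CPM and 90th percentiles of 6208 and 5655 CPM. Cd74-positive tumour cells lay between, with medians of 1496 and 1501 CPM and 90th percentiles of 4943 and 6084 CPM. Above 4000 CPM, a level chosen after the values were seen, lay 9.83% and 9.99% of Cd74-negative tumour cells, which held 35.9% and 40.7% of the class's 36-member UMIs. In macrophage/microglia cells 25.5% and 20% of cells lay above it and held 46.5% and 45.3%. With cells thinned to 2000 UMIs, at least 3 of the 38 members were found in 65.9% and 66.2% of Cd74-negative tumour cells, 93.5% and 91.2% of macrophage/microglia cells, 93.1% and 91.2% of monocytes, 61.9% and 53.1% of dendritic cells and 87.5% and 63.0% of T cells. The thinning left out 19 Cd74-negative tumour cells and 34 macrophage/microglia cells that were too shallow.

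**Figure D2:**
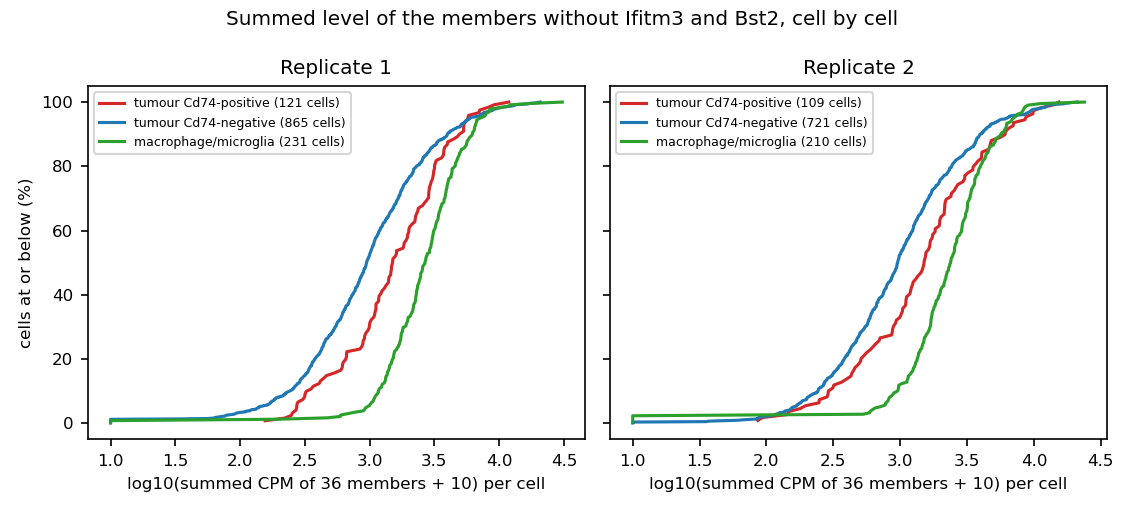
Share of cells (%) at or below each summed level of 36 members (all measured ones but Ifitm3 and Bst2), as log10(CPM + 10), with 1 curve per class and 1 panel per library. At the median the Cd74-positive tumour cells (1496 and 1501 CPM) lie right of the Cd74-negative ones (937 and 947 CPM) and left of macrophage/microglia cells (2665 and 2380 CPM), and the curves come together among the highest cells.

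The unevenness was described member by member with the ratio of variance to mean over cells, which is near 1 for counts that scatter by chance alone. In Cd74-negative tumour cells thinned to 10000 UMIs it was 14 and 10.9 for Ifit3, 12.5 and 10.2 for Ifit1, 11.2 and 17.1 for Rsad2 and 10.1 and 8.40 for Isg15. For Ifitm3 it was 7.42 and 7.44, for Bst2 5.30 and 4.87, and for Irf9 1.26 and 1.14. The median was 2.21 and 2.24 over the members found in at least 10% of cells, against 1.08 and 1.09 over all such genes, whose 99th percentile was 4.66 and 4.77. In macrophage/microglia cells the same ratio was 3.64 and 2.15 for Ifit3, 1.46 and 3.72 for Ifit1 and 5.76 and 11.9 for Ifitm3, with medians of 1.28 and 1.51 over the members and 1.09 and 1.08 over all genes. So at like mean levels of Ifit1, a UMI of it was found in 16.9% and 18.6% of the thinned Cd74-negative tumour cells and in 37.0% and 30.2% of the thinned macrophage/microglia cells. Only 92 and 96 macrophage/microglia cells were deep enough for this thinning, which left out 139 and 114, so their values describe the deeper cells of that class.

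**Figure D3:**
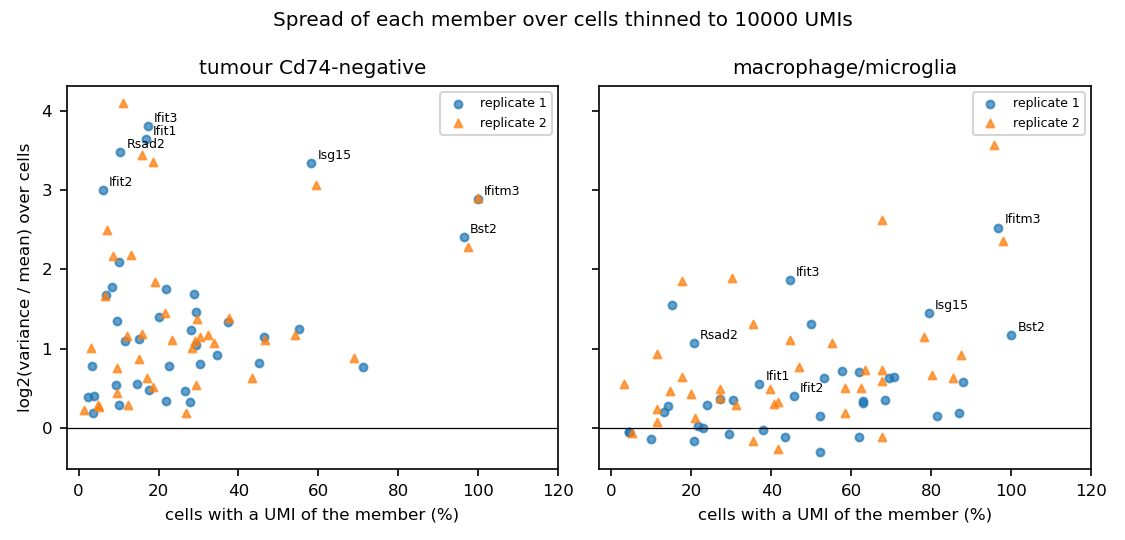
Log2 of variance over mean of each member's counts per cell (thinned to 10000 UMIs) against the share of cells (%) with a UMI of it, in Cd74-negative tumour cells (left) and macrophage/microglia cells (right), with circles for replicate 1 and triangles for replicate 2. Ifit3, Ifit1 and Rsad2 stand high at small shares of tumour cells (ratios from 10.2 to 17.1) and the line at 0 marks a variance equal to the mean.

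Counts of different members went together from cell to cell. The median correlation was higher in Cd74-negative tumour cells than in macrophage/microglia cells, each class over its own set of members. Over 378 pairs of the 28 members found in at least 10% of Cd74-negative tumour cells, the median Spearman correlation of thinned counts was 0.272 and 0.287 in replicates 1 and 2, and 280 and 296 pairs were over 0.2. Over all pairs of genes in the same cells the median was 0.0057 and 0.0070, and 0.0634% and 0.0736% of pairs were over 0.2. The strongest pairs were Ifitm3 with Bst2 (0.61 and 0.64), Ifit1 with Ifit3 (0.60 and 0.58), Ifit3 with Rsad2 (0.52 and 0.63) and Ifit1 with Rsad2 (0.52 and 0.57). Isg15 had the highest mean correlation with the other members (0.378 and 0.400), and Ifi27 (0.038 and 0.105) and Irf9 (0.137 and 0.123) had low ones. These correlations are descriptions over cells of 1 library each, which share its depth and handling. Cells with no thinning, in CPM, gave medians of 0.430 and 0.444.

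In macrophage/microglia cells the median over 528 pairs of 33 members was 0.112 and 0.139, with 142 and 157 pairs over 0.2 and 97 and 77 below 0. Of all gene pairs there, 3.93% were over 0.2 in each library, with 92 and 96 cells, against 835 and 690 Cd74-negative tumour cells. The strongest pairs were Isg15 with Oasl2 (0.44 and 0.36), Ifit2 with Isg15 (0.38 and 0.38) and Irf7 with Ifitm3 (0.37 and 0.43). Ifi27 had a mean correlation of -0.050 and -0.118 with the others and Irf9 -0.021 and -0.043. Among genes that are no members, those most correlated with the summed member count in Cd74-negative tumour cells (lower value of the libraries) were the immunoproteasome subunits Psmb8 (0.55) and Psmb10 (0.47) with the activator Psme1 (0.49), the interferon-inducible GTPases Gbp3 (0.52), Irgm1 (0.50) and Iigp1 (0.50), the Ifi200 genes Ifi203 (0.49) and Ifi211 (0.47), H2-K1 of MHC class I (0.47) and Ly6a (0.46). Ifitm3 and Bst2 held 63.1% of the summed tumour level, and without them, a choice made after their levels were seen, the order began with Irgm1 (0.49), Iigp1 (0.47), Gbp3 (0.47), Ifi203 (0.47) and Ifi211 (0.47), Psmb8 had 0.43, and Psmb10, Psme1 and Ly6a were not among the first 10. In macrophage/microglia cells they were led by Ly6a (0.37), Ifi27l2a (0.35), Tspo (0.31), Slfn5 (0.30) and Isg20 (0.30). Without Ifitm3 and Bst2 they were led by Slfn2 (0.33), Slfn5 (0.33), Sp100 (0.32), Ifi209 (0.32) and Parp12 (0.29), and Ly6a, Ifi27l2a and Tspo were not among the first 10.

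**Figure D4:**
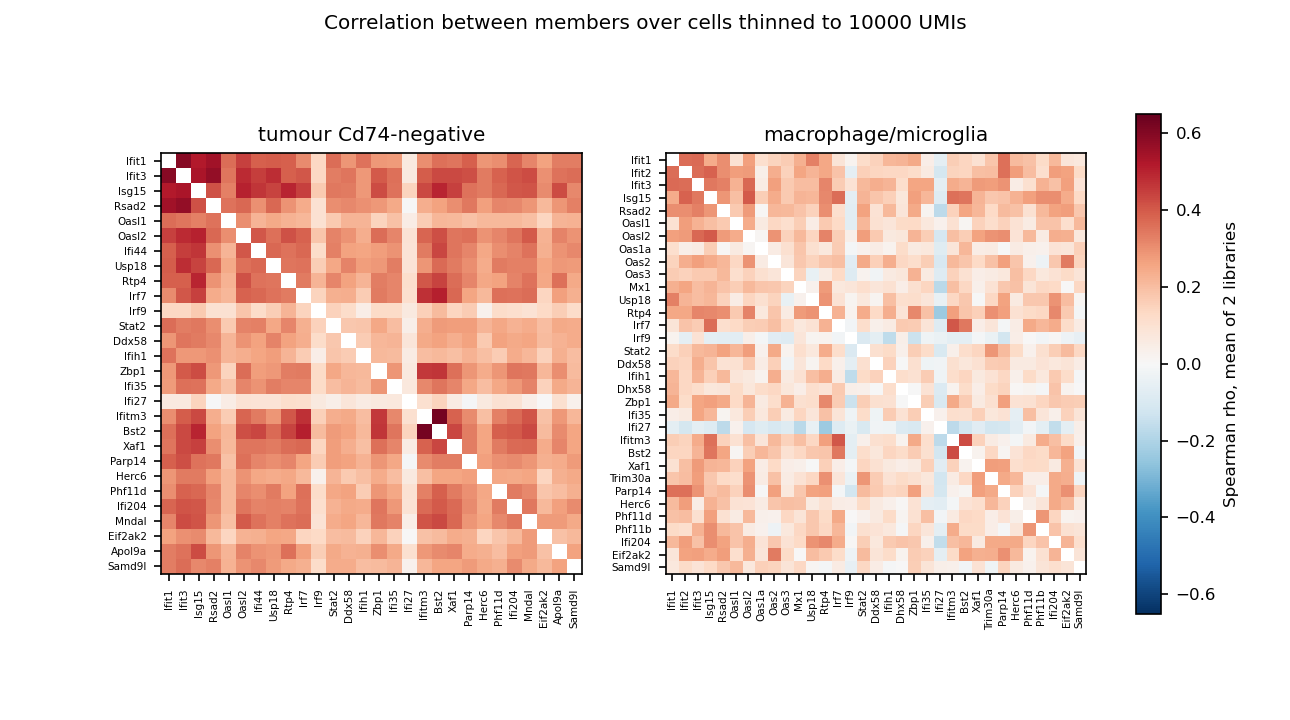
Spearman correlation between members over cells thinned to 10000 UMIs (colour, mean of both libraries) in Cd74-negative tumour cells (left, 28 members) and macrophage/microglia cells (right, 33 members). Most tumour pairs are red, with the darkest blocks at Ifit1, Ifit3, Isg15 and Rsad2 and at Ifitm3 with Bst2, while the rows of Irf9 and Ifi27 are pale in tumour cells and partly blue in macrophage/microglia cells.

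Tumour cells with and without Cd74, the invariant chain of MHC class II, were compared next. Phf11b was the 1 member called of 38. It had 9.45 and 11.6 CPM in Cd74-positive tumour cells (66 and 88 UMIs), against 2.66 and 2.47 CPM in Cd74-negative tumour cells (108 and 92 UMIs), a log2 fold change of 1.98 ± 0.19 (edgeR, adjusted p = 5.17e-09). Of all genes, 0.903% were called higher and 0.128% lower. The 5 cells with most Phf11b held 54.5% and 52.3% of its UMIs in the Cd74-positive cells. The log2 difference was 2.02 without tumour cells that held a UMI of 6 leukocyte genes.

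The log2 difference was positive for 36 of 38 members with a median of 0.36, where the median of all genes was 0.00. Higher at an adjusted p under 0.05, whatever the size of the difference, were 12 of 38 members and none was lower, where 2.05% of all genes were higher on that rule. Besides Phf11b these were Mx1 (0.93 ± 0.25), Phf11d (0.87 ± 0.09), Parp14 (0.73 ± 0.11), Ifit2 (0.71), Cmpk2 (0.69), Ifit3b (0.64), Zbp1 (0.56), Stat2 (0.53), Eif2ak2 (0.47), Oasl2 (0.45) and Xaf1 (0.41). Few cells weighed heavily in some of these. The 5 Cd74-positive cells with most Mx1 held 70% and 72.4% of its UMIs. For Ifit2 that share was 67.6% and 66.1%, for Cmpk2 42.6% and 76.4% and for Ifit3b 43.8% and 60%. It was smaller for Phf11d (16.6% and 28.0%) and Parp14 (18.6% and 30.5%). Phf11d had 63.7 and 73.2 CPM in Cd74-positive cells, against 34.2 and 38 CPM in Cd74-negative cells (adjusted p = 4.48e-08), and Parp14 had 61.4 and 60.8 CPM, against 33.0 and 38 CPM. Values of both genes did not overlap between the classes. Ifi27 (-0.03) and Oasl1 (-0.13) had log2 differences below 0. Cd74-positive cells were also deeper, with medians of 50049 and 56282 UMIs, against 40402 and 45454. They held 5.30 and 25.1 CPM of the leukocyte genes, against 5.34 and 7.65 CPM. A refit without tumour cells holding a leukocyte UMI is given for Phf11b above. The number of calls with tumour cells of at least 20000 UMIs is given below. Depth was not matched between the classes, so its part in the result was not tested.

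The libraries differed for some members that were uneven over cells. Rsad2 had 27.8 CPM in replicate 1 and 102 CPM in replicate 2 of the Cd74-positive cells, against 37.8 and 52.6 CPM in Cd74-negative cells. Ifit1 had 63.6 and 132 CPM, against 70.2 and 80.2 CPM. In replicate 2, the 5 Cd74-positive cells with most of each gene held 85.2% of its Rsad2 UMIs and 57.6% of its Ifit1 UMIs. A few cells thus set the level of these members in that class.

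Where Cd74-positive cells were taken from 3 UMIs up (48 and 43 cells), 10 members were called higher and none lower, where 2.28% of all genes were called higher. They were Phf11b (log2 2.95 ± 0.22), Mx1 (1.58 ± 0.25), Phf11d (1.44 ± 0.13), Ifit2 (1.39 ± 0.16), Cmpk2 (1.37 ± 0.17), Ifit3b (1.20 ± 0.17), Parp14 (1.17 ± 0.13), Ifit3 (1.06 ± 0.13), Rsad2 (1.04 ± 0.14) and Zbp1 (1.03 ± 0.12). Zbp1 had 174 and 170 CPM in these cells, against 76.9 and 83.8 CPM in Cd74-negative cells, and Parp14 had 77.5 and 90 CPM, against 33.0 and 38 CPM. Both libraries showed those differences. Rsad2 had 38 and 172 CPM, against 37.8 and 52.6 CPM, and Mx1 5.74 and 27.2 CPM, against 4.53 and 5.69 CPM. Ifit3b had 16.3 and 62.2 CPM, against 13.3 and 17.4 CPM, and Ifit3 97.0 and 225 CPM, against 66.2 and 76.6 CPM. In all 4 genes the difference in replicate 2 was the larger one. The standard errors, which come from a spread pooled over all classes, do not show that disagreement between libraries.

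**Figure D5:**
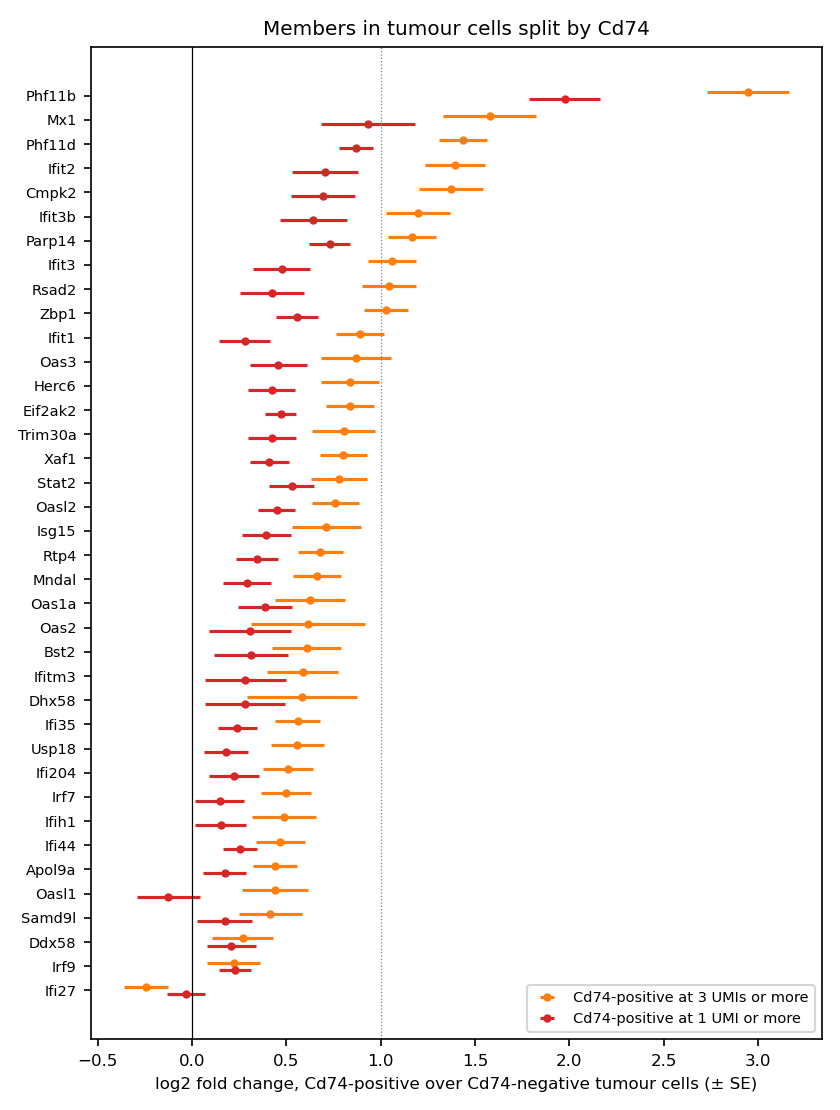
Log2 fold change (± SE from the edgeR fit) of each member in Cd74-positive over Cd74-negative tumour cells, with Cd74-positive taken from 3 UMIs up (orange) or from 1 UMI up (red), and the limit of 1 dotted. Phf11b lies farthest right (2.95 and 1.98), most members lie right of 0, and Ifi27 lies left of it under both definitions.

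The rest of the pathway was read from 4 lists of genes that are no members. In tumour cells against macrophage/microglia cells, 0 of 16 tested interferon ligands, receptors and signalling genes were higher and 13 lower, 0 of 12 nucleic acid sensors and adaptors were higher and 10 lower, and all 8 tested brakes were lower. Of 35 other interferon-induced genes 3 were higher and 24 lower. Their median log2 fold changes were -2.51, -1.71, -2.02 and -1.76, where all genes had 0.24 and the members -0.85. The receptor chain Ifnar1 had 12.7 and 12.7 CPM in tumour cells, against 67.1 and 56.8 CPM in macrophage/microglia cells, and Ifnar2 36 and 39.4 CPM, against 210 and 233 CPM. Tmem173 (STING, the adaptor of cytosolic DNA sensing) had 45.2 and 47.9 CPM in tumour cells, against 176 and 185 CPM. Each of these genes was called lower in tumour cells.

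Between Cd74-positive and Cd74-negative tumour cells, the signalling gene Irf1 was higher, as were 1 of 12 sensors (Tlr3), 1 of 8 brakes (Socs1) and 3 of 35 other interferon-induced genes (Slfn5, Ifi27l2a and Ly6a), with medians of 0.09, 0.11, 0.48 and 0.48 on the log2 scale. Irf1, a transcription factor of interferon responses, had 172 and 144 CPM in Cd74-positive cells, against 76.2 and 71.4 CPM in Cd74-negative cells (log2 fold change 1.04). Socs1, the inhibitor of Janus kinases, had 67.4 and 60.3 CPM, against 24.0 and 25.1 CPM. Among the ligands, Ifnb1 was called lower in Cd74-positive cells, from the few cells described below. Of the members in the response complex, Stat2 had 30.8 and 35.9 CPM in Cd74-positive cells, against 21.6 and 22.9 CPM, and Irf9 had 41.5 and 44.4 CPM, against 34.1 and 36.6 CPM.

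Ifnb1, one of several ligands of the pathway, was seen in few cells. Levels of the interferon alpha genes are not described here. It had 69 UMIs in 4 of 1586 Cd74-negative tumour cells (0.252%, exact 95% interval 0.0688% to 0.644%), and none in 230 Cd74-positive tumour cells, which allows up to 1.30% of cells, or in 441 macrophage/microglia cells, which allows up to 0.680%. The share in Cd74-negative tumour cells lies below what the Cd74-positive cells allow, so no difference in the share of cells was detectable. The fit of summed counts, which goes by UMIs and not by cells, called Ifnb1 lower in Cd74-positive tumour cells. That call rests on the 69 UMIs, of which 54 lay in 1 cell. Macrophage/microglia cells were shallower, with medians of 7893 and 9317.5 UMIs, against 40402 and 45454 in Cd74-negative tumour cells, and their limit is on cells with a UMI, not on cells that express the gene. The counts in the 4 cells were 13 and 1 in replicate 1 and 1 and 54 in replicate 2. The cells with 13, 1 and 54 UMIs had 35008, 35119 and 26679 UMIs in all, held 32, 36 and 33 of the 38 members and had 20024, 16515 and 19079 CPM of the 36 members, close to the highest cells of the class. The cell with 1 UMI in replicate 2 had 1070 UMIs in all and 4 members. Interferon gamma (Ifng) was found at 224 and 95.4 CPM in T cells, from 29 and 18 UMIs.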

How the data were processed

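The deposited values are raw UMI counts per gene and barcode. Per the labels' protocols and the submitters' processing notes, the authors ran Cell Ranger 3.1, with STAR as aligner and mm10 as genome, to obtain these counts; the gene annotation is not stated in the sources used here, and combination of runs at equal depth is also named. The deposited totals differ between libraries and were used as counts without normalization, with 0 columns left out. Members and pathway lists were chosen with earlier results of these data known. Reads of paralogs that align to several places are not counted, so such levels are lower limits.

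Cells were gated and cells of more than 1 of the 7 gates left out; no doublets were removed, since scrublet marked 11 and 3 cells (0.632% and 0.207%). Free RNA gives UMIs in cells that do not express a gene and was not removed. UMIs were added up over the cells of a class, separately in each library, for the 7 classes that had 20 cells or more in both. A single edgeR 4.0.16 quasi-likelihood fit in R 4.3.3 took the 14 sums, with TMM factors, a library term and 6 residual degrees of freedom. Genes needed 10 counts or more in 2 or more sums, which left 13288, and p was adjusted over all of them by Benjamini-Hochberg. Sums of 1 library share its handling, which is where the pairing comes from. The model was tested on simulated data. CPM is a count over the UMI total of its class, times 1000000. Errors of fold changes are standard errors. Values per cell, thinning and correlations used Python 3.11.15 with numpy 2.4.6, scipy 1.17.1, pandas 2.3.3, scanpy 1.11.5 and scikit-image 0.26.0, and figures matplotlib 3.10.9. Exact binomial and counting intervals are at 95%, and a count of 0 allows up to 3 counts.

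One pathway gene is not reported here. All members are accounted for, with values per library printed for members called in a comparison and for those highest in a class; genes outside the lists are the 10 most correlated with the member sum in at least 10% of cells. Alternatives were RLE size factors, library sizes alone, DESeq2 1.42.0, other filters, no block, and other limits on cells and gates.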

Additional observations from a re-analysis of the deposited data

Results flagged for a closer look

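Member RNA was also present in barcodes that entered no comparison. Kept cells that passed no gate had a summed member level of 6119 CPM over both libraries (5787 and 6451 CPM in replicates 1 and 2), beside 4736 and 4829 CPM in tumour cells. Apol9a was at 122 and 79.0 CPM in them. Barcodes that failed the limits on genes or mitochondrial share had 862 CPM over both libraries (911 and 813 CPM), with Apol9a at 11.7 and 15.1 CPM and red cell genes at 304162 and 338139 CPM. Both are values of barcodes outside the gates, and no control library was available to set them against.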

How the results depend on the processing

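Of 102 called member differences, refitted under 1329 alternatives in all, 1236 kept their direction and call, 86 lost the call and 7 reversed. Without the replicate block, 100 of 102 were unchanged and 2 lost the call; the counts without it were 1 for the Cd74 split, 20 for tumour against macrophage/microglia cells, and 12 higher instead of 13 in macrophage/microglia cells. Macrophage/microglia cells had 8 members higher with library sizes alone. Basophils had 1 higher instead of 6 with cells kept in every gate they pass, where 22 were lower, and 2 with Nras at 2000 CPM; dendritic cells had 1 instead of 4 with cells kept in every gate. The Cd74 split gave 10 members from 3 Cd74 UMIs up and 2 with tumour cells of at least 20000 UMIs. The share of all genes called is not given for that refit at 20000 UMIs. Nor is it given for basophils with Nras at 2000 CPM, so the member counts of both refits have no background. Tumour cells had 7 higher instead of 3 without immune cells that held Cdkn2a or Nes. Reversed in basophils were Ddx58 (-0.79), Isg15 (-0.63) and Samd9l (-0.96) with cells kept in every gate, and Ddx58 (-0.18) and Samd9l (-0.062) with Nras at 2000 CPM. Without cells holding Cdkn2a or Nes, no counts were left and fitted values were -7.70 for Ifi44 in basophils and -6.86 for Apol9a in dendritic cells; elsewhere the cause was not tested.

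In 1 library alone, 166 of 204 values stayed within the spread between libraries, 36 moved and 2 reversed: in tumour cells against the others, Oasl1 ranged from -1.62 to 0.73 and Mx1 from -2.78 to 0.21 on leaving out 1 replicate. Counts of calls were not possible there because each class then has 1 sum and no residual degrees of freedom. Neutrophils could not be fitted except with cells kept in every gate. Among all genes the Cd74 split gave 137 calls, but 70 with DESeq2, 81 with filterByExpr, 89 with Nras at 2000 CPM, 222 with cells in every gate and 372 from 3 Cd74 UMIs up. Tumour against macrophage/microglia gave 6431 and 3974 with filterByExpr, tumour against the others 4966 and 3004 with filterByExpr, and basophils 1899 and 3775 with cells in every gate. With library sizes alone the split of all genes was 1291 higher and 419 lower in basophils (1647 and 252 with TMM) and 763 and 350 in T cells (633 and 531), and the median of all genes was 0.39 for tumour against macrophage/microglia (0.24 with TMM), 0.02 in basophils (0.27), 0.27 in dendritic cells (0.09), 0.03 in macrophage/microglia cells (0.19) and -0.18 in T cells (-0.40); with RLE factors it was -0.21 in monocytes (-0.35) and 0.13 in basophils (0.27). Depth limits the classes with few UMIs, above all neutrophils and T cells.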
